A study of Homo sapiens with 5 samples.

Results

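Methylated let-7a was compared with native let-7a, gene by gene, in RNA from transfected HCT116 cells. HCT116 is a human colorectal carcinoma cell line. Members of the comparison were genes whose mean over the 5 libraries of the deposited table reached 1 TPM (a unit that scales each gene by its length and each library to the same total), and 14180 of its 57773 gene entries met this rule. Of these, 12250 were annotated as protein coding. For each gene the difference was log2(TPM + 1) in the library labelled let7a-19A minus log2(TPM + 1) in the library labelled let7a-native, so a positive value means a higher level with the methylated form. Adding 1 understates the difference of genes with low values. The rule on the mean was met just by ACAP1 and ALOX15, both at a mean of 1.0 TPM, and just missed by SPRED3 and TRIM49, both at 0.98 TPM.

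Every library, the control included, came from HCT116 cells in which Dicer, the enzyme that cuts microRNA precursors, had been knocked out according to the series, and each group is 1 library: a negative control transfection, native let-7a, methylated let-7a (19A), native miR-17 and methylated miR-17 (13A). The labels give no dose, time after transfection or clone, and they name no kind of methylation and no oligonucleotide sequence. The study asked how a methyl group on a microRNA affects the RNAs it targets. Total RNA was depleted of ribosomal RNA and made into stranded libraries. With 1 library a side, no difference below has a replicate check, and none carries a test or a p-value.

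Messenger RNA of DICER1, the targeted gene, stood at 11.2 TPM with native and 12.5 with methylated let-7a, 15.4 with the control, and 15.9 and 12.9 with native and methylated miR-17. The labels do not say which part of the gene was altered, so a gene-level value does not check the knockout. Mature microRNAs are not measured in a table of this kind, and the transfections themselves could not be checked in it. Colon epithelial markers were present: EPCAM, an epithelial adhesion molecule, stood between 524.4 and 618.8 TPM and KRT8, a keratin of simple epithelia, between 1902.3 and 2910.4 TPM. Of 20 such markers 14 passed the rule on the mean, while VIL1, CDX1 and CEACAM5, markers of differentiated colon cells, were listed at 0 in all 5 libraries. The summed TPM of those 20 genes was 8849.2 with native and 8426.6 with methylated let-7a, and the summed TPM of 12 blood and immune markers was 12.8 and 10.4. Of those 12 blood and immune markers, 4 passed the rule on the mean. Among the others, PTPRC, CD3D and HBB, defining genes of leukocytes, T cells and red cells, were listed at 0 in all 5 libraries.

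let-7 is a conserved family of microRNAs that accumulates as cells differentiate and is low in many tumours. A microRNA is loaded into an Argonaute protein and guides it to messenger RNAs, mainly through its seed, the bases 2 to 8 from its 5′ end. TNRC6 proteins then recruit deadenylases, and the messenger RNA is translated less and decays faster. Among the best known targets of let-7 are the growth and oncofetal genes HMGA2, the IGF2BP family, RAS genes and LIN28B, which itself blocks let-7 maturation. Bases beyond the seed, in the 3′ part of the microRNA, can add pairing at some sites.

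The human let-7a strand is shown here from RefSeq (GRCh38.p14), first with its seed in capitals and then with base 19 in capitals, because the label 19A was read as the adenosine at that position. The miR-17 strand, with its seed in capitals, is shown because its pair of libraries serves as the only other methylated and native pair.
let-7a seed: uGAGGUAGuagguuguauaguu
let-7a base 19: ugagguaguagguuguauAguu
miR-17 seed: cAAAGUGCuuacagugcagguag
Base 19 lies outside the seed, in the distal 3′ part of the strand. The same mature let-7a sequence is annotated in 3 genes, MIRLET7A1 at chr9:94175962-94175983 on the plus strand, MIRLET7A2 at chr11:122146568-122146589 on the minus strand and MIRLET7A3 at chr22:46112752-46112773 on the plus strand (GRCh38.p14). Whether the transfected strand has exactly this sequence is not stated in the labels.

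Across the 14180 genes the methylated and native let-7a libraries were close to each other. The median difference was -0.03, the quartiles were -0.14 and 0.07, and the standard deviation over genes was 0.33. Pearson's r of log2(TPM + 1) between both libraries was 0.987 across genes, which are not independent replicates. By any amount 5641 genes (39.8%) were higher and 8097 (57.1%) lower with the methylated form. In bulk RNA, fewer cells of a type and less RNA per cell cannot be told apart, which applies to every difference below.

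At least 2-fold higher in TPM + 1 with methylated let-7a were 135 genes (0.952%), and at least 2-fold lower were 139 (0.98%). These differences sat mostly among weakly expressed genes. From 1 to 5 TPM, 6.71% of 3400 genes passed 2-fold in either direction, from 5 to 20 TPM 0.944% of 4557, and from 20 to 100 TPM 0.062% of 4803. Of the 1420 genes with a mean of 100 TPM or more, 0 passed. Of the 274 genes past 2-fold, 78 were annotated as protein coding and 117 were listed at 0 in 1 of both let-7a libraries. The miR-17 pair, which shares no library with the let-7a pair, had 97 genes (0.684%) at least 2-fold higher and 141 (0.994%) at least 2-fold lower.

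**Figure D1:**
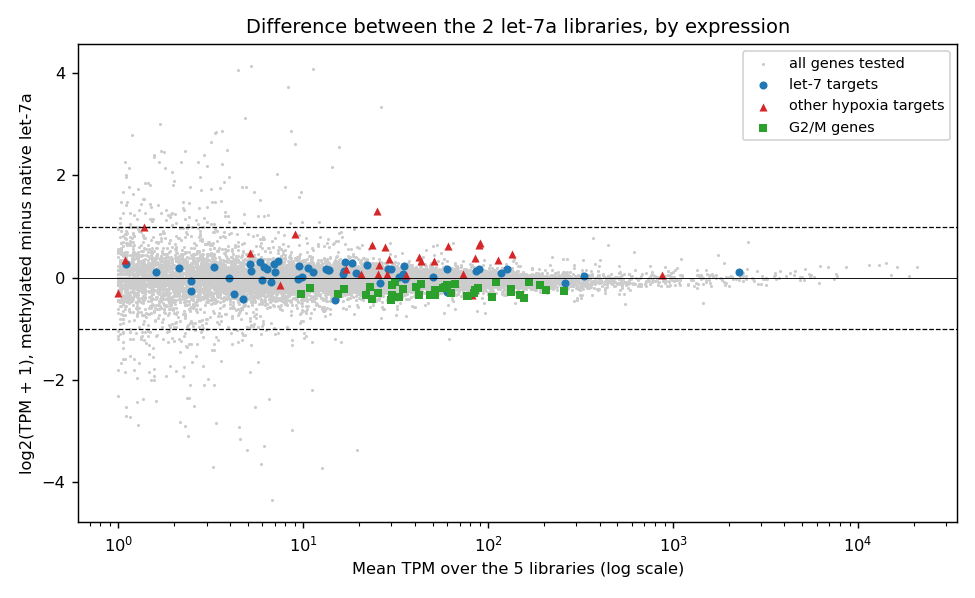
Each point is 1 of the 14180 genes, with its mean TPM over the 5 libraries on the log-scaled x axis and the difference in log2(TPM + 1), methylated minus native let-7a, on the y axis; dashed lines mark 2-fold. The spread narrows as the mean grows, and all 42 G2/M genes (green squares) lie below 0. Above 0 lie 25 of 30 hypoxia targets (red triangles) and 38 of 52 let-7 targets (blue circles). Of all genes 57.1% lie below 0 and 39.8% above it.

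Among 6223 genes averaging at least 20 TPM and above 0 in all 5 libraries, 3 passed 2-fold. ANGPTL4, a secreted inhibitor of lipoprotein lipase, was at 12.7 TPM with native and 32.8 with methylated let-7a, 57.5 with the control, and 11.3 and 10.7 with native and methylated miR-17, a difference of 1.30. AP003419.11 was at 2.4 TPM with native let-7a and between 28.5 and 36 TPM in the other 4 libraries, a difference of 3.35. NDUFC2-KCTD14, a readthrough entry that shares exons with NDUFC2, was at 79.4 TPM with native and 34.2 with methylated let-7a, a difference of -1.19. NDUFC2 itself, at 90.9 and 89.0 TPM, differed by -0.03. How the authors' counting shared reads among overlapping entries is not known, so values of readthrough entries are uncertain.

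Known let-7 targets were mostly a little higher with methylated than with native let-7a. Of the 64 textbook targets that the deposited values cover, 52 passed the rule on the mean. Of these, 38 were higher (39.8% of all genes), 13 lower (57.1% of all genes) and 1 (ONECUT2) equal. The median difference was 0.12, against -0.03 over all genes, and the highest was 0.33. None reached 2-fold or 1.5-fold in either direction, while 2.24% of all genes were 1.5-fold or more higher and 2.39% lower by as much. In the miR-17 pair, where 28.4% of all genes were higher and 69% lower, 6 of these 52 targets were higher and 44 lower, with a median of -0.15 against -0.09 over all genes. Set against the control, the median of the list was -0.29 for native let-7a minus control and -0.25 for methylated let-7a minus control. Those 2 differences share the control library with each other, and each shares a let-7a library with the methylated-minus-native difference.

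Growth factor signalling held the 2 highest of these differences. IGF1R, the receptor of insulin-like growth factors, was at 6.1 TPM with native and 7.9 with methylated let-7a, 8.6 with the control, and 8.3 and 5.4 with native and methylated miR-17, a difference of 0.33. IRS2, the adaptor that passes on signals of that receptor and of the insulin receptor, was at 13.8, 17.4, 25.9, 14.5 and 12 TPM in the same order, a difference of 0.31. For both genes native let-7a was the lower of the let-7a libraries and the methylated form lay between it and the control. Naming genes by this difference favours an extreme value in either let-7a library. Such orders of libraries, here and below, are therefore no separate result. INSR, the insulin receptor, was at 9.6 TPM with native and 11.1 with methylated let-7a, a difference of 0.19.

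NRAS and HRAS, small GTPases that relay growth signals, differed little. NRAS was at 73.3 TPM with native and 82.4 with methylated let-7a, a difference of 0.17, and at 100.8 with the control. HRAS was at 88.0 and 96.3 TPM, a difference of 0.13. TGFBR1, a receptor kinase for TGF-beta, was at 33.6 TPM with the control and at 22.3 and 25.3 with native and methylated let-7a, a difference of 0.17.

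Oncofetal and chromatin-binding targets went both ways. HMGA2, an architectural chromatin protein of embryonic tissue, was at 23.9 TPM with native and 28.1 with methylated let-7a, 56.0 with the control, and 36.5 and 31.0 with native and methylated miR-17, a difference of 0.22. It was the only target on the list at least 2-fold lower than the control with native let-7a, as were 1.18% of all genes. HMGA2 holds up to 7 let-7a sites in 1 annotated 3′ UTR but 0 in the longest. IGF2BP2, an RNA-binding protein of the same oncofetal programme, was at 91.9 TPM with native and 98.5 with methylated let-7a, a difference of 0.10. Its paralogue IGF2BP3 had the lowest difference of the list, -0.43: it was at 14.4 TPM with native and 10.4 with methylated let-7a, 13.7 with the control, and 18.4 and 17.8 with native and methylated miR-17. IGF2BP3 was thus lowest with methylated let-7a of all 5 libraries. HMGA1, at 2275.7 and 2470.5 TPM, differed by 0.12, and LIN28A, LIN28B, IGF2BP1 and TRIM71 did not pass the rule on the mean.

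Transcription factors of the list ranged from 0.30 to -0.42. PBX3, a homeobox partner of HOX proteins, was at 9.0 TPM with the control, 4.7 with native and 6.0 with methylated let-7a, a difference of 0.30. PLAGL2, a zinc finger factor, was at 26.5, 13.7 and 17 TPM in the same 3 libraries, a difference of 0.29. E2F6, a repressor of the E2F family, was at 25.3, 18.9 and 22.6 TPM, a difference of 0.25. ARID3A, a DNA-binding partner of E2F factors, was at 7.1, 4.2 and 5.0 TPM, a difference of 0.21. In each of these 4 genes the methylated library lay between the native library and the control, an order that naming genes by a high difference favours. With native and methylated miR-17, PBX3 was at 4.8 and 4.7 TPM and PLAGL2 at 18.4 and 16.1. E2F6 was at 22.1 and 21.3 TPM and ARID3A at 8.5 and 5.9 in those miR-17 libraries. HIC2, a zinc finger repressor, was at 4.8 TPM with the control, 4.6 with native and 3.2 with methylated let-7a, a difference of -0.42, and E2F2, an activator of the E2F family, at 2.8, 2.5 and 1.9 TPM, a difference of -0.27.

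Cell cycle members of the list were likewise mixed. CDC25A, the phosphatase that activates cyclin-dependent kinases at the G1/S step, was at 8.4 TPM with the control, 5.7 with native and 7.1 with methylated let-7a, a difference of 0.27. It was at 7.1 and 6.6 TPM with native and methylated miR-17. CDK6, a G1 kinase, was at 50 TPM with native and 56.0 with methylated let-7a, a difference of 0.16. CDC34, a ubiquitin-conjugating enzyme of the SCF pathway, was at 96.7 and 108.9 TPM, a difference of 0.17. RRM2, the small subunit of ribonucleotide reductase, went the other way, at 63.0 TPM with the control, 75.1 with native and 61.9 with methylated let-7a, a difference of -0.27. DNA2, a replication helicase and nuclease, differed by -0.32 and AURKB, a mitotic kinase, by -0.18. RRM2, E2F2 and AURKB are also on the cell cycle lists described below, where most members were lower.

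**Figure D2:**
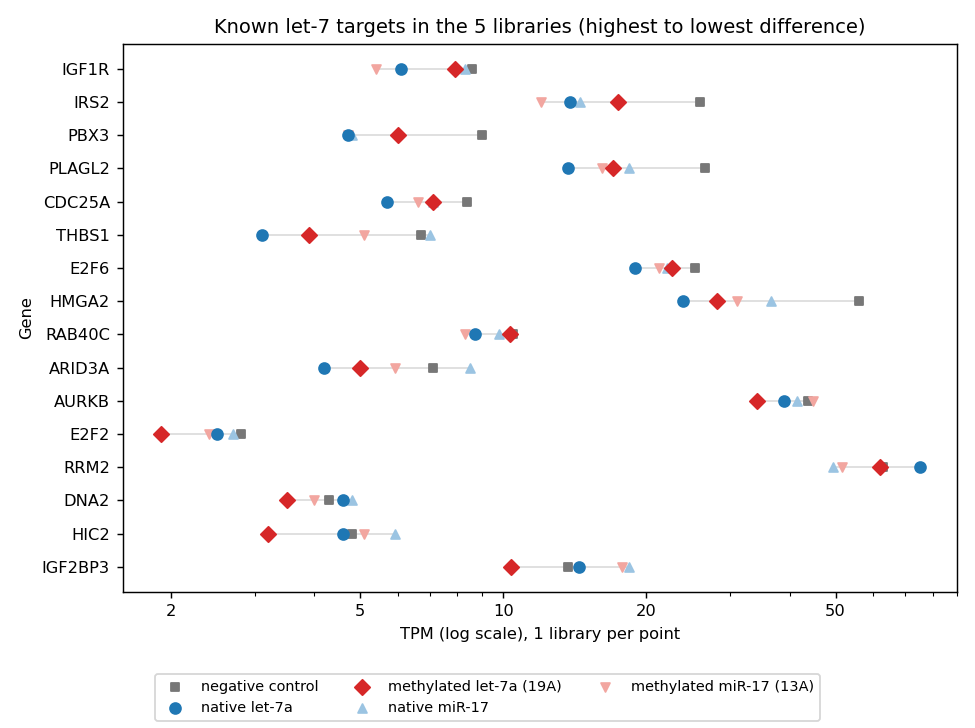
TPM (log-scaled x axis) of 16 let-7 targets, the 10 with the highest and the 6 with the lowest difference among those with a mean of at least 2 TPM, with 1 point per library. In the upper 10 genes the methylated let-7a diamond lies to the right of the native let-7a circle and in the lower 6 to its left; in the lower genes other than RRM2 it is the lowest of all 5 libraries.

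The sites behind these targets are shown for members at both ends of the list that have an 8mer, the full match to bases 2 to 8 followed by an A, in the 3′ untranslated region (3′ UTR), taken as the longest one that GENCODE 29 gives for the gene. Each line gives the 30 bases that end with the site, in messenger RNA sense as DNA letters, with the 8mer in capitals. Where bases 13 to 20 of let-7a could pair, they would face the lower-case bases upstream of it.
IGF1R: tttttttcccccaaacatttatCTACCTCA
IRS2: tacactcaaaacgaccacagtcCTACCTCA
E2F6: attttcacatacctagctgtttCTACCTCA
ARID3A: agcgcctgctgcctatctctgtCTACCTCA
IGF2BP3: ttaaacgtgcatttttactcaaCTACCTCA
HIC2: tttctaccaggaccccctccccCTACCTCA
RRM2: cagcatctttaaaactgtgtagCTACCTCA
In GRCh38 these 3′ UTR stretches lie at chr15:98960039-98960068 (IGF1R, plus strand), chr13:109755844-109755873 (IRS2, minus), chr2:11445453-11445482 (E2F6, minus) and chr19:974504-974533 (ARID3A, plus). The other 3 lie at chr7:23311795-23311824 (IGF2BP3, minus), chr22:21450875-21450904 (HIC2, plus) and chr2:10129500-10129529 (RRM2, plus). The first 4 genes were higher and the last 3 lower with methylated let-7a, and all 7 have the same 8 letters. In the lower-case bases shown, ARID3A alone among the 7 holds CTAT, the complement of let-7a bases 17 to 20. None of the 7 holds ACAA, the complement of bases 13 to 16, there.

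Beyond the textbook list, a let-7a site was searched in 12020 genes with an annotated 3′ UTR of at least 50 bases, as CTACCTC or TACCTCA, or as the 8mer CTACCTCA that contains both, in messenger RNA sense alone. A site was found in 2157 genes (17.95% of those searched). Their median difference was 0.0012 and 50.07% of them were higher with methylated let-7a. In the 9863 genes without a site the median was -0.043 and 36.2% were higher. The 525 genes with an 8mer had a median of 0.015 and 52.38% higher, and the 327 genes with 2 sites a median of 0.031 and 58.1% higher. At least 2-fold higher were 2 genes with a site (0.093%) and at least 2-fold lower 1 (0.046%). Of the genes without a site they were 25 (0.253%) and 16 (0.162%), and of all genes searched 0.225% and 0.141%. Of all 14180 genes, including those not searched, the shares were 0.952% and 0.98%.

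Genes with a site had longer 3′ UTRs, with a median of 2992 bases against 1124 without, and the difference itself moved with 3′ UTR length. The genes were therefore divided into 5 equal bins of 3′ UTR length. Over genes without a site the median was -0.073 in the shortest bin and 0.0 in the longest. Within each bin the median was higher with a site than without: -0.002 against -0.073 in the shortest, -0.026 against -0.064 in the next, -0.021 against -0.043 in the middle bin, 0.0 against -0.021 in the one after it and 0.021 against 0.0 in the longest. The ranges between the quartiles of both classes overlapped in all 5 bins. The shortest bin held 78 genes with a site and the longest 1028.

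In the miR-17 pair the same genes were ordered the other way by length. Medians without a let-7a site went from 0.0 in the shortest bin to -0.16 in the longest. With a let-7a site they were -0.034 in the shortest and -0.17 in the longest bin, below the genes without one in all 5 bins. What part 3′ UTR length takes in the let-7a differences was not tested.

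**Figure D3:**
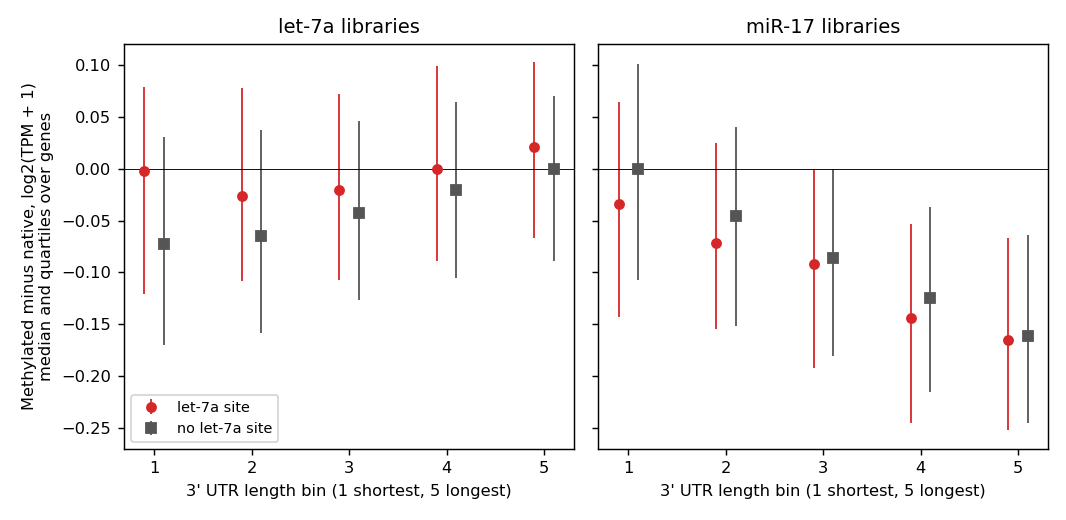
Median difference, methylated minus native in log2(TPM + 1), for genes with (red circles) and without (grey squares) a let-7a site, by bin of 3′ UTR length (5 bins of equal size, 1 the shortest), in the let-7a pair (left) and the miR-17 pair (right); bars span the quartiles over genes. In the let-7a pair red lies above grey in all 5 bins, grey moves up with length in every step, and red goes from -0.002 to -0.026 over the 2 shortest bins before it moves up; in the miR-17 pair both move down with length and red lies below grey.

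Sites were also divided by the bases upstream of them, since base 19 lies among those that can pair there. A run of CTAT, the complement of bases 17 to 20, stood within 25 bases upstream of a site in 147 genes (1.22% of those searched). Their median difference was -0.02 and 41.5% were higher with methylated let-7a, against 0.0063 and 50.7% in the 2010 genes with a site but no such run. For ACAA, the complement of bases 13 to 16, the median was 0.006 in 208 genes with the run (1.73% of those searched) and 0.0006 in 1949 without. A match is a run of letters and not a measured pairing, and each of these differences is small beside the quartiles over genes.

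Among genes with an 8mer, a mean of at least 5 TPM and values above 0 in all libraries, C8orf58 had the highest difference. It was at 8.9 TPM with native and 16.1 with methylated let-7a, 24.2 with the control, and 16.5 and 15.5 with native and methylated miR-17, a difference of 0.79. NRTN, the secreted neurotrophic factor neurturin, was at 7.8 TPM with native and 10.5 with methylated let-7a (0.39), KCNK6, a potassium channel subunit, at 11.2 and 14.9 (0.38), and EFHD2, a calcium-binding protein, at 74.1 and 94.7 (0.35). At the other end were CSTA, the protease inhibitor cystatin A, at 7.1 and 4.8 TPM (-0.48), IGF2BP3, ZBTB8OS, a tRNA ligase cofactor, at 17.9 and 13.7 (-0.36), and PRIM2, the large primase subunit, at 14.1 and 11.2 (-0.31). The presence of an 8mer thus went with differences of either sign.

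Genes of glucose uptake and glycolysis were higher with methylated than with native let-7a. Of 22 genes, 21 were higher (39.8% of all genes) and 1 (PFKM, a muscle-type phosphofructokinase) was lower. The median difference was 0.29, against -0.03 over all genes. Reaching 1.5-fold were 3 members, SLC2A3, SLC2A1 and HK2, against 2.24% of all genes, and 1 of them, SLC2A3, reached 2-fold (against 0.952%). The same list had, in the miR-17 pair, 14 higher and 7 lower (28.4% and 69% of all genes), with a median of 0.10. Against the control its median was -0.61 with native let-7a, where 21 of 22 were lower (47.9% of all genes), and -0.31 with methylated let-7a, where 21 of 22 were lower as well (56.1% of all genes). Both comparisons with the control share that library.

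Both glucose transporters on the list led it. SLC2A1 (GLUT1), the main glucose transporter of tumour cells, was at 235.7 TPM with native and 406.1 with methylated let-7a, 608.6 with the control, and 300.5 and 286.8 with native and methylated miR-17, a difference of 0.78. SLC2A3 (GLUT3) was at 5.8, 13.5, 21.6, 9.7 and 10.1 TPM in the same order, a difference of 1.09. In both genes native let-7a was the lowest of the 5 libraries and methylated let-7a was second to the control. A low native value is favoured because both were named for a large difference.

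The enzymes of the pathway followed with smaller differences. HK2, the hexokinase that traps glucose in the cell, was at 79.5 TPM with the control, 38.5 with native and 59.3 with methylated let-7a, a difference of 0.61. PFKFB4, a regulator of phosphofructokinase, was at 23.3, 14.1 and 21.3 TPM in the same 3 libraries, a difference of 0.56. LDHA, the lactate dehydrogenase subunit, was at 530.0 TPM with native and 748.6 with methylated let-7a, 934.9 with the control, and 391.6 and 456.5 with native and methylated miR-17, a difference of 0.50. Methylated let-7a lay between native let-7a and the control in these 3 enzymes too, which were also named for their large difference. With native and methylated miR-17, HK2 was at 37.6 and 37.1 TPM and PFKFB4 at 15.6 and 15.9. GAPDH, the abundant dehydrogenase of the pathway, was at 7820.1 and 9063.4 TPM, a difference of 0.21. HK2 and ALDOC had 1 let-7a site each in the longest 3′ UTR, and the other 20 genes had none.

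Other targets of the hypoxia response differed in the same direction. Of 31 genes with deposited values 30 passed the rule on the mean, and LOX did not. Of these 30, 25 were higher (39.8% of all genes) and 5 lower with methylated let-7a, with a median of 0.33. At least 1.5-fold higher were 8 (against 2.24% of all genes) and at least 2-fold 2, ANGPTL4 and CA9 (against 0.952%). In the miR-17 pair 15 of the 30 genes were higher and 14 lower (28.4% and 69% of all genes), with a median of 0.0039. Against the control the list's median was -0.59 with native and -0.31 with methylated let-7a.

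CA9, a carbonic anhydrase of the cell surface that is a common hypoxia marker, was listed at 0.6 TPM with native and 2.2 with methylated let-7a, 3.7 with the control and 0.2 in both miR-17 libraries, a difference of 1.00 on a low level. ADM, the vasodilator peptide adrenomedullin, was at 140.9, 61.8 and 99.1 TPM with the control, native and methylated let-7a, a difference of 0.67. KDM3A, a histone demethylase, was at 33.6, 17.6 and 28.1 TPM, a difference of 0.65, and its miR-17 libraries were at 19.1 and 19 TPM. ADM was at 75.2 and 73.5 TPM with native and methylated miR-17. In ADM and KDM3A, named by the same rule, the methylated library again lay between native let-7a and the control.

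P4HA1, a collagen prolyl hydroxylase, was at 138.2, 75.2 and 118.2 TPM with the control, native and methylated let-7a, a difference of 0.65. Its native and methylated miR-17 libraries were at 55.6 and 56.4 TPM. BNIP3, a mitophagy receptor, was at 45.7 TPM with native and 70.5 with methylated let-7a (0.61), and PLOD2, a collagen lysyl hydroxylase, at 18.6 and 28.5 (0.59). ANKRD37 was at 10.4 TPM with the control, 7.2 with native and 13.8 with methylated let-7a, a difference of 0.85. Unlike P4HA1, ANKRD37 was higher with methylated let-7a than in any other library.

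Some members of the list went the other way or barely differed. HILPDA, a lipid droplet protein, was at 24.6 TPM with native and 21.8 with methylated let-7a (-0.17), TMEM45A at 6.5 and 5.8 (-0.14), STC2, a secreted glycoprotein, at 71.3 and 66.6 (-0.10), and CA12, another carbonic anhydrase, at 1.1 and 0.7 (-0.30). VEGFA, the vascular growth factor, was at 27.2 and 28.7 TPM, a difference of 0.07, and DDIT4, an inhibitor of mTOR signalling, at 909.1 and 938.0 TPM, a difference of 0.05.

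Messenger RNA of the hypoxia-inducible factors, which the cell regulates mainly through protein stability, differed little between both let-7a libraries. HIF1A was at 177.1 TPM with native and 159.9 with methylated let-7a, 161.7 with the control, and 109.6 and 105.5 with native and methylated miR-17, a difference of -0.15. EPAS1 (HIF-2 alpha) was at 40.3 and 44.6 TPM, a difference of 0.14, and ARNT, their partner, at 32.9 and 32.0 TPM, a difference of -0.04. Of 8 subunit and oxygen-sensing genes 3 were higher and 5 lower (39.8% and 57.1% of all genes), with a median of -0.05. The 2 highest were EGLN3 (0.48) and EGLN1 (0.37), prolyl hydroxylases that are also on the hypoxia list, and VHL, which marks hydroxylated factors for decay, differed by -0.12.

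**Figure D4:**
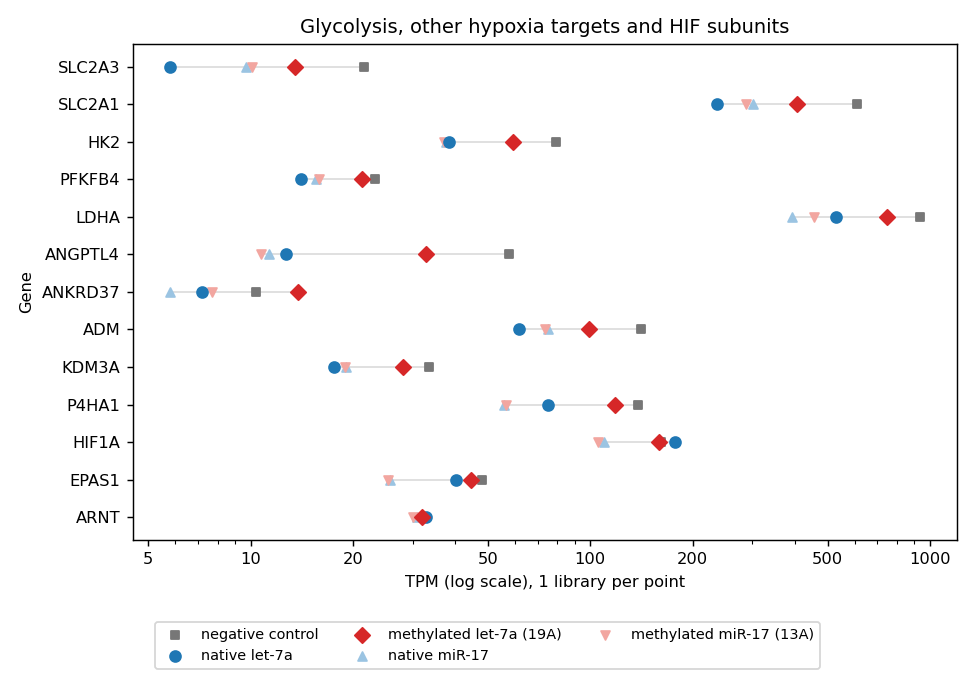
TPM (log-scaled x axis) of 5 glucose uptake and glycolysis genes, 5 other hypoxia targets and 3 subunits of the hypoxia-inducible factors, with 1 point per library. In the upper 10 genes the methylated let-7a diamond lies to the right of the native let-7a circle. In 9 of them, ANKRD37 being the exception, it lies between that circle and the control square. The upper 10 were picked by the size of this difference, which favours that order. HIF1A, EPAS1 and ARNT differ little between both let-7a libraries.

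Genes of G2 and mitosis were lower with methylated let-7a without exception on the list: 42 of 42, with differences from -0.43 to -0.08 and a median of -0.25, while 57.1% of all genes were lower. None reached 1.5-fold. KIF23, a kinesin of the central spindle, was at 45.4 TPM with native and 33.4 with methylated let-7a, 36.6 with the control, and 16.9 and 17.3 with native and methylated miR-17, a difference of -0.43. NDC80, a kinetochore protein, was at 31.0, 22.9, 21.4, 21.0 and 21.1 TPM in the same order, a difference of -0.42. In both genes the native let-7a library was the highest of the 5.

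Further mitotic genes were lower by similar amounts. CCNB2, a mitotic cyclin, was at 168.9 TPM with the control, 185.9 with native and 141.7 with methylated let-7a, a difference of -0.39. CENPA, the centromeric histone, was at 34.0, 43.2 and 32.8 TPM, a difference of -0.39, and NUSAP1, a spindle protein, at 109.3, 135.4 and 104.2 TPM, a difference of -0.37. Native let-7a was the highest of these 3 libraries each time and methylated let-7a the lowest. Against the control the list's median was 0.21 with native let-7a, where 40 of 42 were higher (49.9% of all genes). It was -0.09 with methylated let-7a, where 30 of 42 were lower (56.1% of all genes). The miR-17 pair had 27 of the 42 higher and 14 lower (28.4% and 69% of all genes), with a median of 0.04.

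G1/S and replication genes were lower to a smaller degree. Of 43 genes 39 were lower (57.1% of all genes) and 4 higher (POLD3, ORC1, POLE2 and SLBP), with a median of -0.16. None reached 1.5-fold. ORC6, a subunit of the origin recognition complex, was at 6.9 TPM with the control, 8.1 with native and 5.6 with methylated let-7a, a difference of -0.46. CDC45, a component of the replicative helicase, was at 5.6, 8.0 and 5.8 TPM, a difference of -0.40, and RRM1, the large subunit of ribonucleotide reductase, at 50.9, 60.6 and 48.1 TPM, a difference of -0.33. MCM2 and PCNA, the helicase subunit and the polymerase clamp that often stand for this phase, differed by -0.14 and -0.07. Of the 43, 21 were higher and 19 lower in the miR-17 pair (28.4% and 69% of all genes), with a median of 0.0.

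Genes of the amino acid response driven by ATF4, a stress transcription factor, were also all lower with methylated let-7a. They were 31 of 31 that passed the rule on the mean, with a median of -0.23, while 57.1% of all genes were lower. CHAC1, a glutathione-degrading enzyme induced by ATF4, was the only one past 1.5-fold: it was at 104.2 TPM with native and 63.9 with methylated let-7a, 59.6 with the control, and 133.0 and 119.2 with native and methylated miR-17, a difference of -0.70. NUPR1, a stress-induced nuclear protein, was at 48.0, 32.8, 38.8, 85.0 and 100.3 TPM in that order, a difference of -0.54. For CHAC1 the methylated let-7a library was close to the control, and for NUPR1 it was below it, while both miR-17 libraries were above the control.

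With methylated let-7a, enzymes of amino acid synthesis on that list lay between native let-7a and the control. PSAT1, of serine synthesis, was at 400.9 TPM with the control, 647.5 with native and 453.0 with methylated let-7a, a difference of -0.51. ASNS, asparagine synthetase, was at 194.9, 320.1 and 234.9 TPM, a difference of -0.44. With native and methylated miR-17, PSAT1 was at 631.2 and 597.4 TPM and ASNS at 386.8 and 369.9. ATF4 itself was at 1502.7 TPM with native and 1311.1 with methylated let-7a, a difference of -0.20. Against the control 30 of 31 genes on the list were higher with native let-7a (49.9% of all genes), with a median of 0.46. With methylated let-7a 28 of 31 were higher (41% of all genes), with a median of 0.20. In the miR-17 pair 6 were higher and 24 lower (28.4% and 69% of all genes), with a median of -0.05.

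Genes of endoplasmic reticulum chaperones and the unfolded protein response did not share this. Of 24 genes 10 were higher and 14 lower (39.8% and 57.1% of all genes), with a median of -0.04, near that of all genes. HERPUD1, a factor of degradation at the endoplasmic reticulum, was at 136.7 TPM with native and 109.9 with methylated let-7a, a difference of -0.31, whereas the chaperone HSPA5 was at 1188.0 and 1156.8 TPM, a difference of -0.04. Of 28 p53 targets 23 were lower (57.1% of all genes) and 5 higher, with a median of -0.11. In the miR-17 pair 19 of the 28 were lower (69% of all genes), with a median of -0.10. GDF15, a secreted stress cytokine on the p53 list, was at 357.9 TPM with the control, 778.5 with native and 625.0 with methylated let-7a, a difference of -0.32, and CDKN1A, the p53-induced cell cycle inhibitor, at 430.8, 483.4 and 442.2 TPM, a difference of -0.13.

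Mitochondrially encoded messenger RNAs were higher with methylated let-7a in 13 of 13 genes, as were 39.8% of all genes. Their median was 0.21 and their range from 0.08 to 0.44. MT-CO1, a core subunit of complex IV, was at 12058.7 TPM with native and 14696.0 with methylated let-7a, 18547.7 with the control, and 13947.0 and 11781.3 with native and methylated miR-17, a difference of 0.29. In the miR-17 pair all 13 were lower (69% of all genes), with a median of -0.24. As a share of the library these 13 genes made up 10% with native and 11.7% with methylated let-7a, 12.6% with the control, and 10.9% and 9.36% with native and methylated miR-17. Because TPM is a share of a fixed total, a larger share here leaves less for all other genes. Rescaling TPM without mitochondrial and ribosomal protein genes moved the median of all genes up by 0.0332. What part the mitochondrial share alone takes in the other differences was not tested.

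Nuclear genes of the same respiratory complexes went the other way. Of 55 subunits 48 were lower (57.1% of all genes) and 7 higher with methylated let-7a, with a median of -0.09. In the miR-17 pair 45 were higher (28.4% of all genes) and 10 lower, with a median of 0.09. NDUFS6, of complex I, was at 110.0 TPM with native and 90.3 with methylated let-7a, a difference of -0.28, and ATP5D, of ATP synthase, at 259.0 and 217.5 TPM, a difference of -0.25. Cytosolic ribosomal proteins barely differed in the let-7a pair: 49 of 79 were higher (39.8% of all genes), with a median of 0.01. All 79 were higher in the miR-17 pair (28.4% of all genes), with a median of 0.15. Their summed share was 15.7% with native and 15.8% with methylated let-7a, and 15.8% with native and 17.6% with methylated miR-17.

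The machinery of silencing and decay was near the level of all genes. Of 18 silencing effectors 11 were higher and 7 lower with methylated let-7a (39.8% and 57.1% of all genes), with a median of 0.03. The differences ranged from -0.17 (DGCR8, the partner of Drosha) to 0.16 (TARBP2, a partner of Dicer). AGO2, the slicing Argonaute, was at 54.1 TPM with native and 55.2 with methylated let-7a, a difference of 0.03. The miR-17 pair had 2 of the silencing effectors higher and 15 lower (28.4% and 69% of all genes), with a median of -0.21. Of 36 mRNA decay factors 25 were lower, with a median of -0.03 that took values between -0.034 and 0.0037 under other settings. Of 21 genes that write, erase or read N6-methyladenosine, 9 were higher and 10 lower, with a median of 0.0 (between -0.032 and 0.037 under other settings), and IGF2BP3 was the lowest of them. The list of miR-17 targets, chosen with earlier results of these data known, had 24 of 44 higher and a median of 0.0064 in the let-7a pair.

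The lists of signalling and chromatin genes gave small medians in the let-7a pair. TGF-beta response genes had 14 of 22 higher (39.8% of all genes) and a median of 0.09. Among them SMAD7, an inhibitor of the pathway, was at 14.2 TPM with the control, 5.4 with native and 7.6 with methylated let-7a, a difference of 0.43. Wnt feedback and colon stem genes had 10 of 17 higher and a median of 0.06. Their lowest member was DKK1, a secreted Wnt antagonist, at 155.3 TPM with native and 98.4 with methylated let-7a, 97.1 with the control, and 41.7 and 43.4 with native and methylated miR-17, a difference of -0.65. AXIN2, a feedback inhibitor of the same pathway, was at 24.7 and 30.2 TPM, a difference of 0.28, so members of the Wnt list differed in both directions. Large chromatin regulators had 22 of 30 higher and a median of 0.07. In the miR-17 pair 30 of 30 were lower (69% of all genes), with a median of -0.28.

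The remaining lists had medians near that of all genes, of which 39.8% were higher with methylated let-7a. Immediate early genes had 13 of 38 higher and a median of -0.07, with FOSL2, an AP-1 subunit, highest at 9.6 TPM with native and 15.0 with methylated let-7a, a difference of 0.59. Interferon-stimulated genes had 15 of 41 higher and a median of -0.01, which took values between -0.012 and 0.025 under other settings. Sterol and fatty acid synthesis genes had 12 of 31 higher and a median of -0.04, heat shock genes 10 of 22 and a median of -0.04, and host genes of small nucleolar RNAs 6 of 17 and a median of -0.05. Replication-dependent histones had 8 of 17 higher and a median of 0.0, microRNA host genes 11 of 21 and 0.03, colon epithelial markers 5 of 14 and -0.03, mesenchymal markers 3 of 9 and -0.05, and blood markers 2 of 4 and 0.0024. The medians of microRNA host genes and of colon epithelial and blood markers took both signs under other settings. None of 6 endothelial markers passed the rule on the mean.

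**Figure D5:**
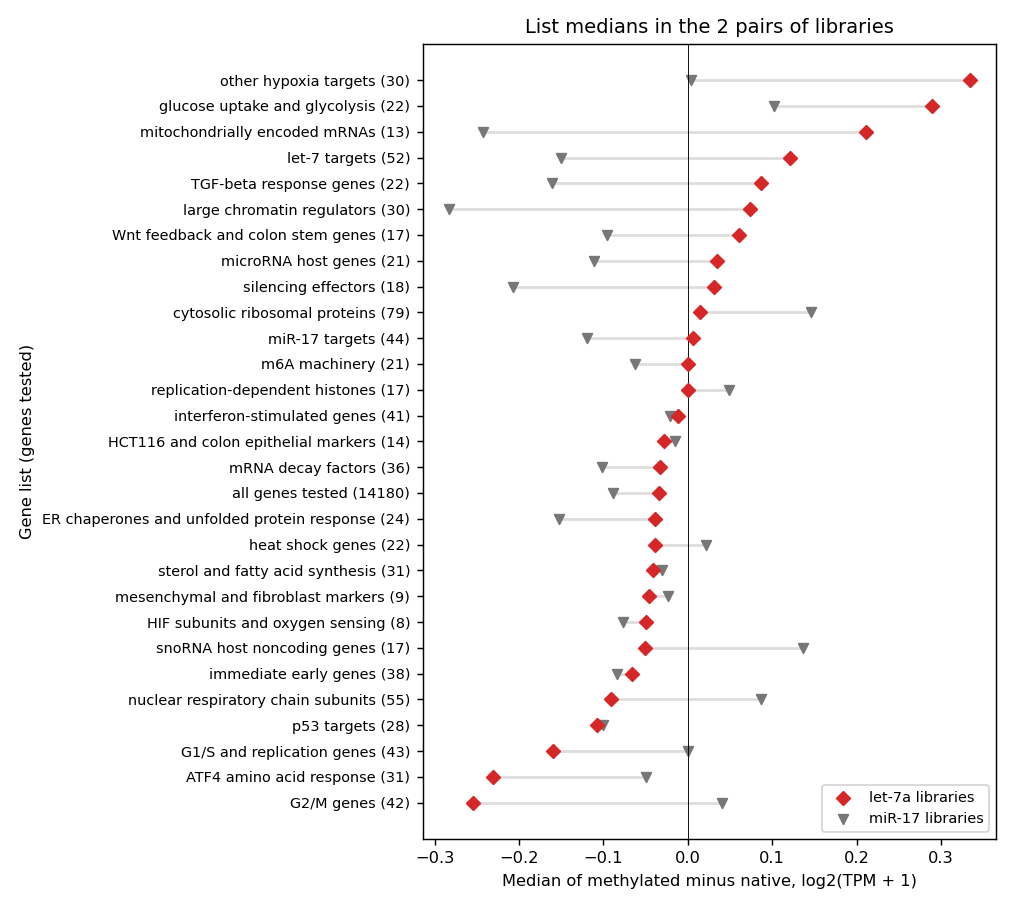
Median of methylated minus native in log2(TPM + 1) for each gene list with at least 8 genes tested (number in parentheses) and for all genes tested, in the let-7a pair (red diamonds) and the miR-17 pair (grey triangles), which share no library. The let-7a medians run from -0.25 for G2/M genes to 0.33 for hypoxia targets, and 12 of the 28 lists lie on opposite sides of 0 in both pairs.

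Outside the lists, the highest differences among genes averaging at least 20 TPM and above 0 in all 5 libraries included ARRDC3, an arrestin-domain adaptor of membrane protein trafficking. It was at 42.7 TPM with native and 68.5 with methylated let-7a, 109.6 with the control, and 51.6 and 51.4 with native and methylated miR-17, a difference of 0.67. The same 12 highest held ANGPTL4, AP003419.11, SLC2A1, ADM, KDM3A and P4HA1, described above. The rest were the antisense entries RP5-940J5.9, at 1761.9 TPM with native and 2867.2 with methylated let-7a, and RP11-138I1.4, with SNORA76_3, MTRNR2L1 and RP4-539M6.19. The 12 lowest held CHAC1, DKK1 and DKK4, another Wnt antagonist, at 37.6 TPM with native and 24.9 with methylated let-7a, a difference of -0.58. They also held MT1F, a metallothionein, at 41.3 and 26.5 TPM (-0.62), and SMN2, at 36.1 and 21.5 TPM (-0.72). SMN2 has a near-identical copy, SMN1, at 90.5 and 98.7 TPM (0.12), and counting can divide reads between both, so its value is uncertain. The other entries of the 12 lowest were NDUFC2-KCTD14, TMEM60, the pseudogene WASH3P, AC012379.1, RP11-343C2.12, CTD-2545G14.7 and RP11-386G11.10.

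The 2 largest differences in each direction belonged to genes listed at 0 in 1 let-7a library, for which no fold is given. Of the 274 genes past 2-fold, 57 of those higher were listed at 0 with native let-7a and 60 of those lower were listed at 0 with methylated let-7a. ESR1, the oestrogen receptor alpha, named here after its values were seen, was listed at 0 TPM with native and 15.9 with methylated let-7a, 12.6 with the control, and 14.6 and 13.1 with native and methylated miR-17. The histone genes HIST1H4J and HIST1H4K, which have near-identical copies, were listed at 11.5 and 0 TPM, and at 0 and 16.7 TPM, with native and methylated let-7a. An exact 0 in a table of this kind can be a failed estimate, and it was not read as absence.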

How the data were processed

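The authors deposited gene-level TPM values, rounded to 1 decimal, for 5 libraries of 1 transfection each. Every column sums to the same total, so depth is unknown and no interval or detection floor is given. The table was made on hg19, per the submitters' processing notes. No source used here names an aligner, a counting tool or an annotation release. Per the labels' protocols, RNA was extracted with Isogen and prepared with a stranded, ribosomal RNA-depleted TruSeq kit. All 5 value columns were matched to samples by the sample number and transfection in their names.

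From these values, differences of log2(TPM + 1) were computed with pandas 2.3.3 in Python 3.11.15. Counts past 2-fold in TPM + 1, and past 1.5-fold (a rule added after the data were seen), are rules of size and not tests. The members and the 30 gene lists, with cell type markers among them, were chosen with earlier results of these data known. Genes were named by rank of difference: the 12 highest and 12 lowest with a mean of 20 TPM or more and no 0, the 5 largest per list from 5 TPM, the 10 highest and 6 lowest let-7 targets from 2 TPM, and the 8 highest and 5 lowest 8mer genes from 5 TPM. Other list members are named for their role. Gene types, 3′ UTRs and site coordinates came from GENCODE 29 (GRCh38), which holds 90.6% of the deposited gene identifiers, and were joined to the hg19 table by identifier alone. Scripts were tested on simulated data. Other pseudocounts, filters, centring on the median, rescaling without mitochondrial and ribosomal protein genes, and the omission of entries listed at 0 were tried.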

Additional observations from a re-analysis of the deposited data

Results flagged for a closer look

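Medians of opposite sign in the let-7a and miR-17 pairs, which share no library, were common: 12 of 29 gene lists had them, 8 with the positive median in the let-7a pair and 4 with it in the miR-17 pair. The 2 lists below are those whose medians were at least 0.1 in size in both pairs. With 1 library a group, the difference between the pairs was not tested. Known let-7 targets had a median difference, methylated minus native, of 0.1212 in the let-7a pair and -0.1509 in the miR-17 pair. Of the 52 targets, 38 were higher in the first pair and 44 lower in the second, while 57.1% and 69% of all genes were lower. Genes in the longest bin of 3′ UTR length, with or without a site, had medians of 0.0 in the let-7a pair and -0.1626 in the miR-17 pair. What part 3′ UTR length takes in the medians of the targets was not tested. Mitochondrially encoded mRNAs had a median of 0.2108 in the let-7a pair, where 13 of 13 were higher, and of -0.2428 in the miR-17 pair, where 13 of 13 were lower. MT-ND6, a complex I subunit and the gene with the largest difference of the 13 in the let-7a pair, was at 1435.6 TPM with native and 1952.4 with methylated let-7a, and at 1682.5 and 1424.5 TPM with native and methylated miR-17.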

How the results depend on the processing

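The counts past 2-fold depended on how low values were treated. The 135 higher and 139 lower genes became 243 and 252 with a pseudocount of 0.1, 21 and 22 with a pseudocount of 5, 21 and 25 among genes averaging 5 TPM or more, 259 and 260 with no filter, and 64 and 64 without genes listed at 0. With the 1.5-fold rule, added after the data were seen, they were 317 and 339. Medians of the lists moved by less than 0.1. That of let-7 targets stayed between 0.0878 and 0.158, and genes with a let-7a site lay above those without by 0.0271 to 0.0529. Only the medians of colon epithelial and blood markers, interferon-stimulated genes, N6-methyladenosine machinery, mRNA decay factors and microRNA host genes took both signs under these alternatives, all within 0.1 of 0. Rescaling TPM without mitochondrial and ribosomal protein genes moved the median of all genes up by 0.0332. Over the genes named by rank, 41 of the recomputed differences moved by more than 0.1 and 1180 did not, and no difference of at least 0.1 in size took the other sign. No paired analysis was possible because each group holds 1 library. Leaving out a replicate was likewise not possible.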
